A study of Mus musculus with 27 samples.

Results

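The 35 genes described here carry out or switch on the oxidation of fatty acids and the making and use of ketone bodies. They were listed by symbol for their known roles, and all 35 were present among the 36333 genes of the deposited table. By role, they comprised 3 regulators, 5 genes of carnitine-dependent transport, 4 acyl-CoA dehydrogenases, 3 genes of electron transfer, 7 other enzymes of mitochondrial β-oxidation, 4 peroxisomal genes, 3 ketone body genes and 6 genes best known as targets of the nuclear receptor PPARα. Each gene was listed under a single role, and genes under other roles can be PPARα targets too.

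RNA-seq of male *Mlx*KO mice covered skeletal muscle, liver and omental adipose tissue (termed abdominal white adipose tissue in the paper). Each tissue was taken from 4 mice aged 5 months and from 5 mice aged 20 months, which gave 27 samples. Every sample, at both ages, had the genotype *Mlx*KO, from the B6.129 line carrying Gt(ROSA)26Sortm1(cre/ERT2)Tyj crossed to *Mlx* Flox/Flox mice, in which a tamoxifen-dependent Cre placed at the broadly active ROSA26 locus deletes loxP-flanked exons of *Mlx* body-wide. Every mouse also had the same treatment, tamoxifen in corn oil at 75 mg/kg, injected i.p. on 5 days once it was weaned and weighed at least 15 g, so both ages had been exposed to the drug early in life. The codes of the samples labelled 20 months begin X18, and the age in the labels was used throughout. The paper's supplement lists older mice, with numbers ending as in these samples, at the age in the codes and not that in the labels. Sample codes at 5 months ended in the same mouse numbers in all 3 tissues, and those at 20 months did not. WT mice were not analysed here, so the comparisons below were between ages and between tissues of *Mlx*KO mice and none measured an effect of *Mlx* loss. In the paper's supplement, mice numbered as the 5-month samples kept more *Mlx* transcript, relative to WT, in skeletal muscle than in liver or adipose tissue. The same order held for older mice whose numbers end as those of the 20-month samples. In skeletal muscle and adipose tissue the older mice tended to keep more of it than the 5-month mice, with overlap between the ages. The part of this unequal loss of *Mlx* transcript in the tissue and age comparisons was not tested. The feeding state and hour at which tissues were taken were not given in the sources used here.

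Fatty acids are activated to acyl-CoA, transferred to carnitine for entry into mitochondria, and shortened there by repeated cycles of dehydrogenation, hydration, a second dehydrogenation and thiolysis. Very long chains are shortened in peroxisomes first, and hepatic acetyl-CoA in excess is made into ketone bodies, which muscle, heart and brain burn but liver cannot. PPARα, PPARδ and the coactivator PGC-1α raise transcription of much of this pathway in fasting and exercise. *Mlx* is the partner of ChREBP and MondoA, which sense glucose-derived metabolites.

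Values are given as deposited, that is, reads per gene on a per-million scale that the authors further divided by a factor for each sample. Samples held 14384695 to 25673919 reads on genes. Values at 5 months are listed in the order of mice X5L4299, X5L5001, X5L5238 and X5L5239 (codes of the liver samples, with F in place of L for adipose tissue and S for skeletal muscle), and values at 20 months in the order of mice 16, 17, 18, 19 and 74 for liver, 36 to 40 for adipose tissue and 56 to 60 for skeletal muscle. Each tissue expressed its defining markers: *Alb* was 26970.1 to 125324 in liver, *Plin1* 50.02 to 785 in adipose tissue and *Myh4* 49838 to 77597 in skeletal muscle. *Ucp1*, the uncoupling protein of brown fat, did not exceed 2.46 in adipose tissue. Reads of *Mlx* itself were counted over the whole gene, which includes parts outside the deletion, and its value ran from 7.04 to 11.6 in skeletal muscle, from 8.19 to 13.9 in adipose tissue, and from 18.8 to 32.4 in liver.

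Some libraries stood apart. Among the 20-month livers, mouse 74 had the lowest value of its group for 31 of the 35 genes, while mouse 16 had the highest value for 23 and resembled the 5-month livers. The median of the 35 genes, as a log2 difference from the 5-month mean, was -0.77 in mouse 74, 0.07 in mouse 16 and -0.30, -0.21 and -0.14 in mice 18, 17 and 19. In adipose tissue, mouse 37 was highest, at 0.56, and mouse X5F5001 lowest, at -0.21. Several adipose and muscle samples also held hepatocyte transcripts, which are given below beside the genes they moved with.

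**Figure D1:**
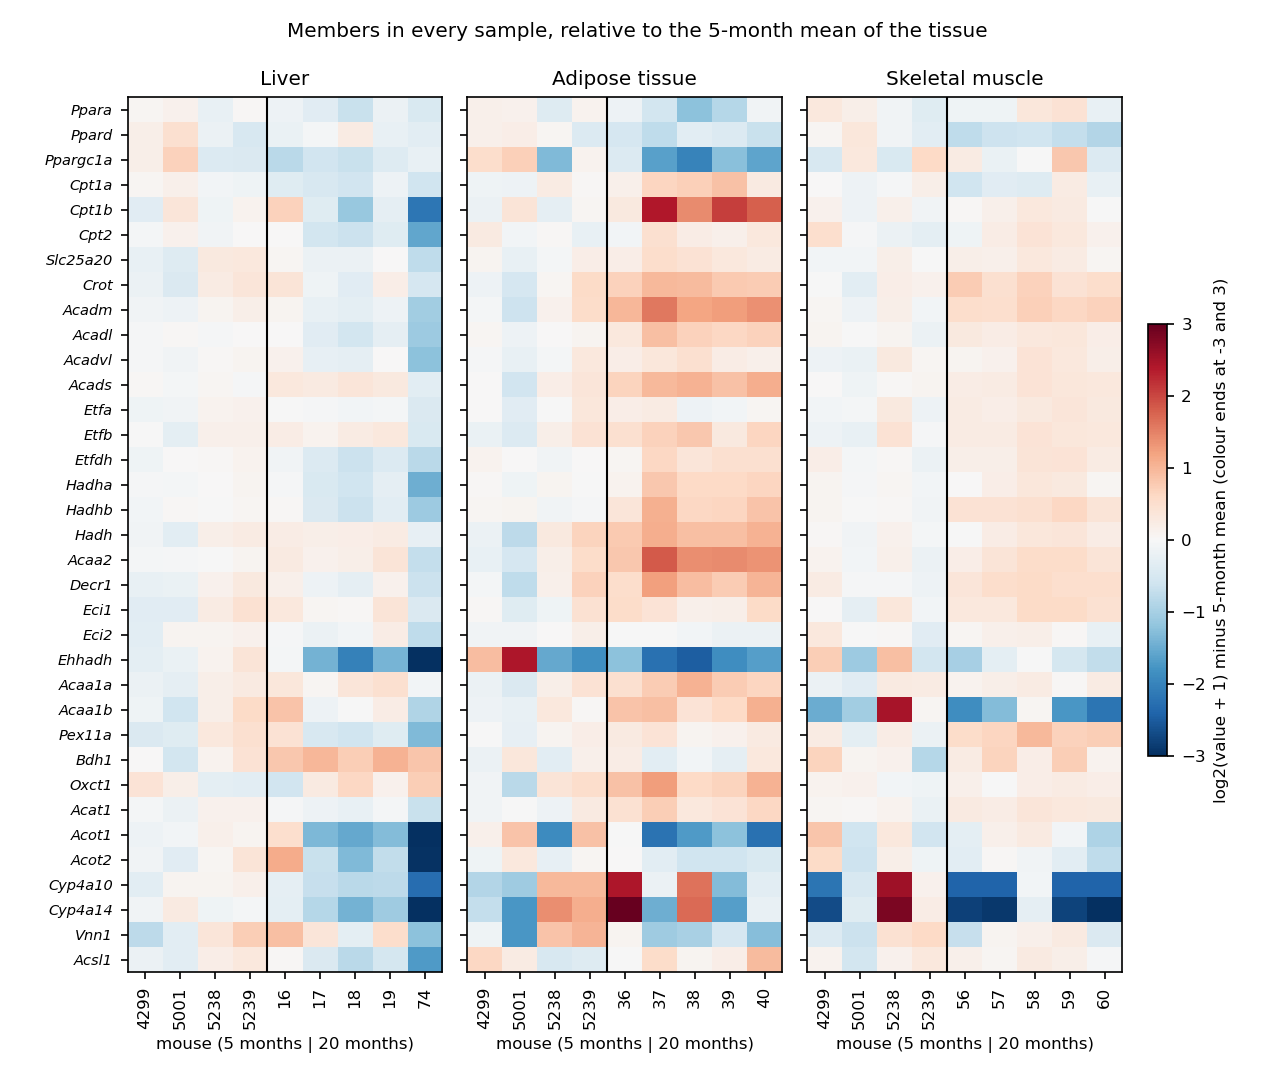
Each column is 1 sample and each row 1 of the 35 genes, coloured by log2(value + 1) minus the mean of the 5-month samples of that tissue, with a vertical line between the ages. Most rows turned red at 20 months in adipose tissue and, more faintly, in skeletal muscle, whereas in liver the blue is deepest in mouse 74 and nearly absent in mouse 16.

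The first comparison asked where the pathway was expressed. Levels of different genes were compared per kilobase of transcript, and levels of a gene between tissues by a limma fit over all 27 samples. Liver was the main site: at 5 months 32 of the 35 genes were higher in liver than in adipose tissue and 28 were higher in liver than in skeletal muscle, against 36.5% and 36% of all 15572 genes tested. In the other direction, 2 and 4 of the genes were lower in liver, where the background was 39.9% and 36.8%, so that 76.4% and 72.9% of all genes passed in either direction. Adipose tissue was the poorest site, with 4 of the 35 genes higher and 26 lower than in skeletal muscle, against a background of 41.9% higher and 30.9% lower (72.8% in all). At 20 months the counts were 33 higher and 2 lower for liver against adipose tissue (background 35.7% and 38.8%, 74.5% in all), 26 and 7 for liver against skeletal muscle (39.2% and 38.1%, 77.2% in all), and 4 and 27 for adipose tissue against skeletal muscle (42.1% and 33.9%, 76% in all). Scaled by the library total only, adipose tissue against skeletal muscle gave 7 genes higher and 17 lower at 5 months and 8 higher and 13 lower at 20 months, with the median of all genes shifted by 0.90 and 0.80 (log2).

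In liver at 5 months the most abundant member per kilobase was *Cyp4a14*, a fatty acid ω-hydroxylase, at 8322 ± 1148 per kb (mean ± SD, n = 4). Next came its relative *Cyp4a10* at 4274 ± 599 per kb and *Ehhadh*, the bifunctional enzyme of peroxisomal β-oxidation, at 4073 ± 897 per kb. *Cyp4a14* thus stood above both by more than the spread between mice, while *Cyp4a10* and *Ehhadh* differed by less than it. The peroxisomal thiolase *Acaa1b* followed at 2803 ± 934 per kb and *Acsl1*, an acyl-CoA synthetase that activates long chains, at 1338 ± 274 per kb. In skeletal muscle the order was led by mitochondrial enzymes, *Hadhb* (the thiolase subunit of the trifunctional protein) at 293 ± 16.5, *Acadl* at 268 ± 21.4 and *Acadvl* at 259 ± 40.9 per kb, and neighbours in this order differed by less than 2 SD. In adipose tissue *Acsl1* came first at 142 ± 52.5 per kb and *Etfa* second at 128 ± 24.9, a difference smaller than the SD of *Acsl1*. By 20 months *Acadm* had moved to second place in adipose tissue, at 147 ± 22.03 per kb, and *Acaa1b* to second place in liver, at 2901 ± 1275 per kb, where *Ehhadh* had dropped to 1669.7 ± 1279.7 (n = 5). At the bottom at 5 months stood *Oxct1* in liver (2.42 ± 0.700 per kb), *Bdh1* in adipose tissue (0.595 ± 0.243 per kb) and *Vnn1*, a pantetheinase, in skeletal muscle (0.445 ± 0.351 per kb).

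**Figure D2:**
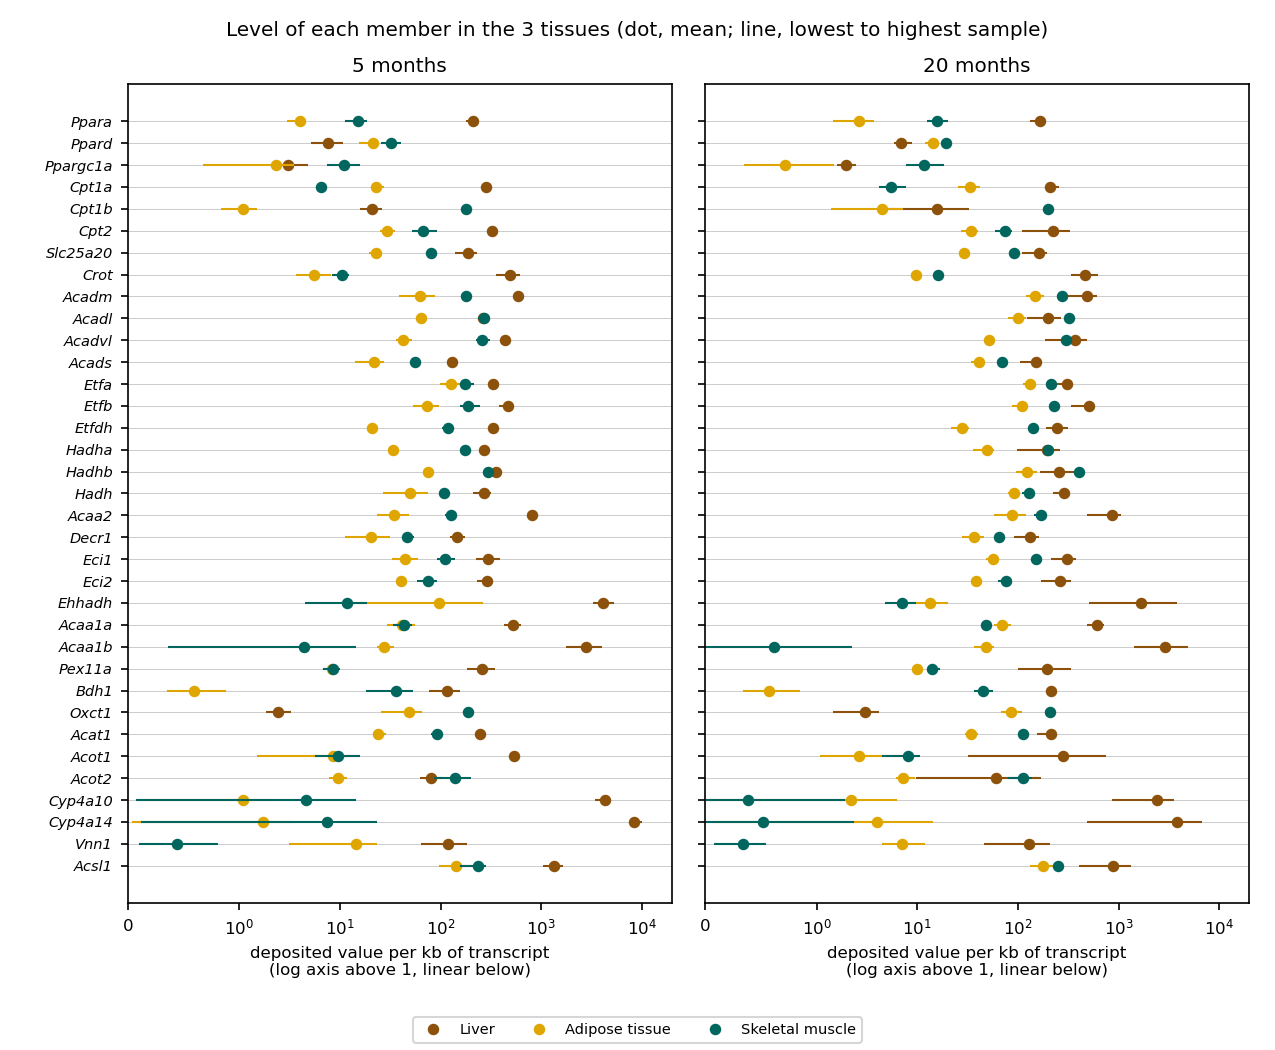
Mean deposited value per kilobase of transcript for the 35 genes in liver, adipose tissue and skeletal muscle at 5 months (left) and 20 months (right), with lines from the lowest to the highest sample, on an axis that is logarithmic above 1 and linear below. Liver lies farthest to the right for most genes, and Oxct1, Ppard, Ppargc1a and Cpt1b are among the exceptions.

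The largest differences at 5 months were the Cyp4a genes. *Cyp4a14* was 5513-fold higher in liver than in adipose tissue and 2459-fold higher than in skeletal muscle on the scale of value + 1 (log2 differences 12.43 ± 1.04 and 11.26 ± 1.04, SE). *Cyp4a10* differed by 11.70 ± 0.79 and 10.70 ± 0.79. After these came *Bdh1*, which reduces acetoacetate to β-hydroxybutyrate, for liver against adipose tissue (6.62 ± 0.24), and *Acaa1b* for liver against skeletal muscle (9.96 ± 0.56). *Acaa1b*, *Vnn1* and *Ehhadh* were the members most in excess in adipose tissue over skeletal muscle, by 3.37 ± 0.56, 3.87 ± 0.49 and 2.24 ± 0.66. The adjusted p of these differences did not exceed 0.00380. The *Ehhadh* excess rested on mice X5F4299 and X5F5001. Its values were 274, 778, 49.0 and 39.6 in adipose tissue and 50.3, 13.4, 55.7 and 19.9 in skeletal muscle, so mice X5F5238 and X5F5239 lay within the muscle range.

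Only a few members ran against liver. *Oxct1*, the transferase that lets a tissue use ketone bodies, had values of 8.59, 7.201, 4.92 and 4.80 in the 5-month livers, 111, 67.8, 157 and 173 in adipose tissue and 526, 537, 461 and 447 in skeletal muscle. It was 16.7-fold lower in liver than in adipose tissue and 68.3-fold lower than in skeletal muscle on the scale of value + 1, with no overlap. *Ppard* was lower in liver than in adipose tissue (-1.41 ± 0.18) and skeletal muscle (-2.01 ± 0.18), and *Ppargc1a*, which encodes PGC-1α, was lower in liver than in skeletal muscle (-1.76 ± 0.38, adjusted p = 0.000156) but did not differ past the threshold from adipose tissue (0.47 ± 0.38, adjusted p = 0.258). *Acot2*, a mitochondrial acyl-CoA thioesterase, and *Bdh1* stood high in skeletal muscle over adipose tissue, with log2 differences of -3.77 ± 0.46 and -4.88 ± 0.24 for adipose tissue minus skeletal muscle. By 20 months 3 further genes, *Acot2*, *Acadl* and *Hadhb*, had joined *Oxct1*, *Cpt1b*, *Ppargc1a* and *Ppard* among those lower in liver than in skeletal muscle.

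Gene pairs with the same reaction divided between tissues. *Cpt1a* and *Cpt1b* encode the carnitine palmitoyltransferases that set the rate of fatty acid entry into mitochondria. Per kilobase, *Cpt1a* exceeded *Cpt1b* 11.7 to 18.5 times in the 4 livers at 5 months and 13.7 to 32.7 times in adipose tissue, whereas in skeletal muscle *Cpt1b* exceeded *Cpt1a* 22.3 to 31.0 times. The cytosolic thioesterase *Acot1* exceeded the mitochondrial *Acot2* in liver by a median factor of 6.98, and *Acot2* exceeded *Acot1* in skeletal muscle by a median factor of 14.5. *Acaa1b* exceeded its near copy *Acaa1a* in liver by a median factor of 5.22 and fell short of it in adipose tissue and skeletal muscle, where *Acaa1a* was higher by median factors of 1.396 and 35.2. These genes share sequence with others, so reads can be split between copies: 78.6% of the 50-base words of *Cpt1b* transcripts also occur in the read-through transcript *Gm44502*, 44.8% of those of *Etfb* in *Gm45233*, 30.5% of *Acaa1b* in *Acaa1a*, 29.8% of *Cyp4a10* mostly in *Cyp4a32*, and 27.7% of *Acot2* in related thioesterases.

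The second comparison asked how the pathway changed between 5 and 20 months in liver. Of the 35 genes, 1 rose and 3 fell, while 10% of the 12654 genes tested rose and 9.79% fell (19.8% in all). Their median log2 change was -0.32, against 0.0011 for all genes tested, 26 had a negative change and 13 had an unadjusted p under 0.05. By role, the 6 genes listed as PPARα targets had the lowest median, -0.94, with none called by limma (3 at an unadjusted p under 0.05). The 3 ketone body genes had the highest, 0.24, with 1 called.

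*Ehhadh* showed the largest change. Its values were 9686, 10429, 12853 and 15602 at 5 months and 11427, 4447, 2945, 4562 and 1508 at 20 months, where mouse 16 lay among the young livers and the other 4 lay below all of them. The log2 change was -1.57 ± 0.49 (SE), adjusted p = 0.0437, a fall of 2.98-fold on the scale of value + 1. *Cpt1a* was 1266, 1355, 1157 and 1116 at 5 months and 946, 874, 816, 1103 and 803 at 20 months, with no overlap between the ages (-0.43 ± 0.14 (SE), adjusted p = 0.0495). *Etfdh*, which passes electrons from fatty acid oxidation to ubiquinone, was 698, 777, 785 and 823 and then 717, 582, 492, 579 and 435, and only mouse 16 reached the range of the young livers (-0.47 ± 0.15 (SE), adjusted p = 0.0472). *Bdh1* went the other way, from 195, 132, 209 and 264 to 340.4, 386, 327, 403 and 347, so that every older liver exceeded every younger one (0.89 ± 0.17 (SE), adjusted p = 0.0113). *Oxct1* remained scarce at 20 months, with values of 3.87, 7.66, 10.1, 6.87 and 10.98 that overlapped the young ones, and *Acat1*, the mitochondrial acetoacetyl-CoA thiolase, did not pass (-0.23 ± 0.15, adjusted p = 0.301).

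**Figure D3:**
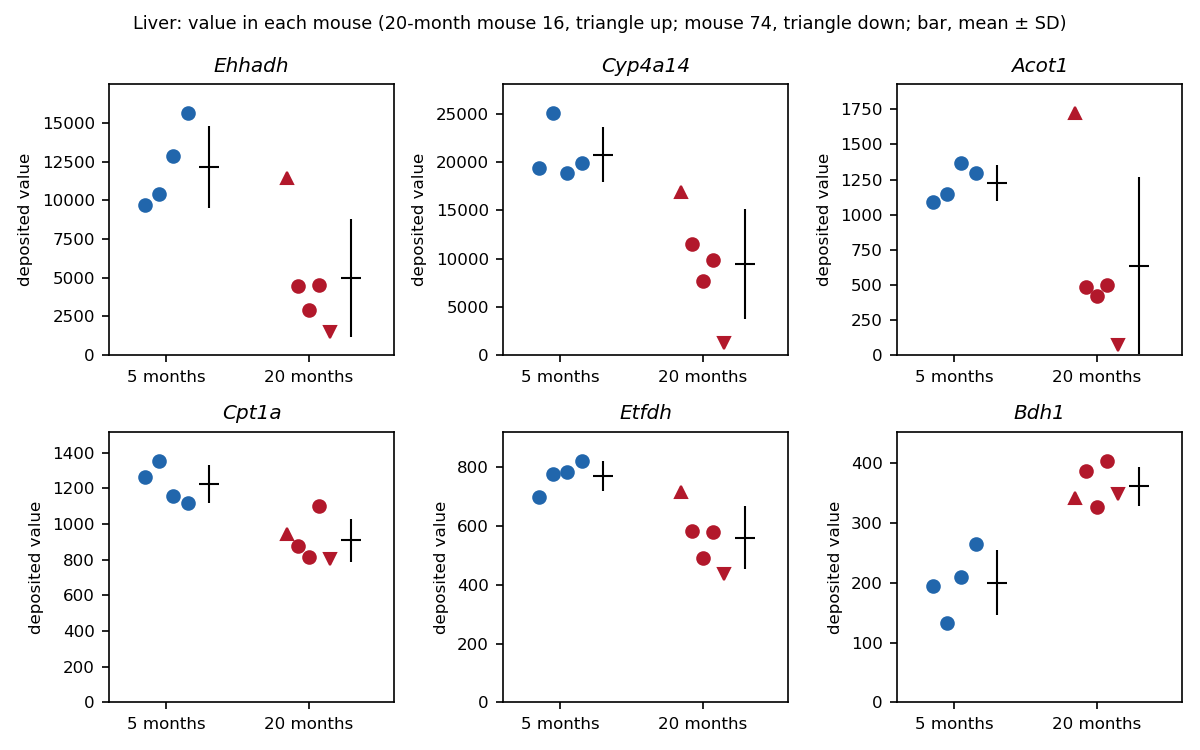
Deposited values of 6 members in the liver of each mouse at 5 months (blue) and 20 months (red), with the mean and SD beside the points and axes from 0. Mouse 16 (triangle up) lies within or near the 5-month values for Ehhadh, Acot1 and Etfdh, mouse 74 (triangle down) is the lowest for all but Bdh1, and Bdh1 is higher in all 5 older mice than in any younger one.

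The 3 falling genes rested on small margins and on single mice. Without mouse 16, 1 member rose and 11 fell, without both mice 16 and 74, 2 rose and 12 fell (an alternative added after seeing the data), and without mouse 74, 2 rose and 2 fell. The share of all genes called was 28.3%, 30% and 20.9% in these 3 fits. Leaving out mouse 17, 18 or any of the 4 younger mice left *Bdh1* as the 1 member past the threshold, and leaving out mouse 19 left 2, while 7.68% to 12.8% of all genes were called. Scaling also mattered, since dividing by the library total only shifted the median change of all genes by 0.23 (log2) and gave 3 members higher and 1 lower, leaving out the 20 most abundant genes shifted it by 0.17 and gave 2 higher and 1 lower, and quantile normalization gave 2 higher and 0 lower.

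The members listed as PPARα targets had the widest spread. *Cyp4a14* was 19335, 25023, 18837 and 19891 at 5 months and 16898, 11473, 7696, 9894 and 1219.6 at 20 months, so that all 5 older livers lay below the younger ones, mouse 74 farthest, yet the test did not pass (-1.54 ± 0.65 (SE), adjusted p = 0.111). *Cyp4a10* was 7062, 9365, 9289 and 9856 and 7349.9, 5429, 5064, 5154 and 1798, and only mouse 16 reached the young range (-0.97 ± 0.38, adjusted p = 0.0889). *Acot1* was 1092, 1145, 1365 and 1298 and 1721, 482, 418, 497 and 72.8, with mouse 16 above every young liver and the other 4 below them (-1.55 ± 0.66, adjusted p = 0.115). *Acot2* also had mouse 16 on top and mouse 74 at the bottom, with 159.5, 136, 179.6 and 225 and 371, 107, 68.0, 103 and 21.2 (-0.92 ± 0.60, adjusted p = 0.286). *Acsl1* (-0.69 ± 0.32, adjusted p = 0.142) and *Vnn1* (0.05 ± 0.42, adjusted p = 0.944) did not pass either, and their ages overlapped.

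The receptor that drives these targets, *Ppara*, was 549.5, 581, 456 and 543 at 5 months and 479, 421, 335, 470.3 and 386 at 20 months (-0.35 ± 0.14, adjusted p = 0.0843). The ages overlapped only because mouse X5L5238 lay below the older mice 16 and 19. *Ppard* was 13.4, 17.02, 10.4 and 8.24 and 10.2, 11.4, 14.2, 10.1 and 9.27 (-0.11 ± 0.19, adjusted p = 0.702). *Ppargc1a* was 15.1, 22.04, 9.77 and 9.68 and 7.28, 8.72, 8.11, 9.996 and 11.3 (-0.53 ± 0.23, adjusted p = 0.118), so no regulator passed. Of the other transport genes, *Cpt1b* also had mouse 16 highest and mouse 74 lowest, at 45.9, 75.4, 53.9 and 63.7 and 95.5, 45.7, 26.1, 48.2 and 12.3 (-0.65 ± 0.45, adjusted p = 0.312). The inner-membrane transferase *Cpt2*, *Slc25a20* (the carnitine-acylcarnitine carrier) and *Crot* (peroxisomal carnitine octanoyltransferase) had log2 changes of -0.62, -0.21 and -0.08. The 4 acyl-CoA dehydrogenases ranged from -0.45 (*Acadl*) to 0.19 (*Acads*), and the 7 other β-oxidation enzymes from -0.57 (*Hadha*) to 0.12 (*Hadh*). The 2 subunits of the trifunctional protein had like values: *Hadha* was 1070.2, 1055, 1096 and 1165 at 5 months and 1062, 799, 726, 902 and 396 at 20 months (-0.57 ± 0.24, adjusted p = 0.114). *Hadhb* was 679, 735, 715 and 755 and 735, 533, 463, 579 and 337 (-0.49 ± 0.19, adjusted p = 0.0926), and in both mouse 16 alone stood inside the young range. The electron transfer flavoprotein subunits *Etfa* and *Etfb* changed by -0.12 and 0.09. The peroxisomal thiolase *Acaa1a* was 560.0, 520.4, 716 and 767 and 803, 659.7, 811, 881 and 595, and *Acaa1b* was 4119.8, 2999, 5094 and 6723 and 8263, 4057, 4485, 5288 and 2409.9. Neither passed (adjusted p of 0.333 and 0.999), whereas *Ehhadh* of the same organelle did, and *Pex11a*, which promotes peroxisome division, changed by -0.46 ± 0.31, adjusted p = 0.305.

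The promoters of the fallers *Ehhadh* and *Cpt1a* and of the riser *Bdh1* are shown because these genes carry the age comparison in liver. Each line is the 250 bases before a RefSeq transcription start (GRCm38.p6), written 5′ to 3′ on the gene's strand, in lower case with every AGGNCA hexamer on either strand (the half-site of PPAR and related receptors) in capitals. *Ehhadh* lies at chr16:21787835-21788084 on the minus strand, *Cpt1a* at chr19:3323051-3323300 on the plus strand, and *Bdh1*, for the first of its listed starts, at chr16:31422047-31422296 on the plus strand.
*Ehhadh*: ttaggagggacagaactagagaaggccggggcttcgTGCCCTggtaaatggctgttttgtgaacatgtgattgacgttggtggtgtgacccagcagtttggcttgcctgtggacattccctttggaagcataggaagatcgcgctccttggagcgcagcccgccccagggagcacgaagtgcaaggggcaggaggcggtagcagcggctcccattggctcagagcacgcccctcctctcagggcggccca
*Cpt1a*: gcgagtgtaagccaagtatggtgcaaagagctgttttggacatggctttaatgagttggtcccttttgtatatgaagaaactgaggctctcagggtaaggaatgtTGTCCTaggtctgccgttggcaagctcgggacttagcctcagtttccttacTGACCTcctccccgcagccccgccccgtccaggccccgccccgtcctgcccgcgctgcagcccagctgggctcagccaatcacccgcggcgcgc
*Bdh1*: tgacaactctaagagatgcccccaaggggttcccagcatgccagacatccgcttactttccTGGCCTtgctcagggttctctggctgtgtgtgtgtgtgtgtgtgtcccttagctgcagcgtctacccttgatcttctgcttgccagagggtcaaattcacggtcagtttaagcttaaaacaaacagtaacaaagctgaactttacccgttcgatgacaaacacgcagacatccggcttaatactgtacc
Such hexamers were common, being found in 51.3% of the 32851 promoters listed and in 23 of the 30 promoters of the 28 members with an entry. The direct repeat of this hexamer with a single base between the copies, the form that PPAR and RXR bind, occurred in 0.338% of all promoters and the E-box CACGTG, which *Mlx* and its partners bind, in 6.02%, and neither occurred in these windows of the 28 members.

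Of 62 other genes of the pathway tested in liver, 6 rose and 8 fell, with a median log2 change of -0.29. The largest falls were *Plin5*, a lipid droplet coat protein of oxidative tissue (-1.52 ± 0.38, adjusted p = 0.0213), *Acacb*, the acetyl-CoA carboxylase whose product inhibits CPT1 (-1.51 ± 0.42, adjusted p = 0.0315), and *Cyp4a12b* (-1.10 ± 0.32, adjusted p = 0.0346). The largest rises were *Cd36*, the fatty acid translocase (1.29 ± 0.27, adjusted p = 0.0129), *Abcd2*, a peroxisomal transporter of very long chains (1.25 ± 0.38, adjusted p = 0.0404), and *Bdh2* (0.91 ± 0.25, adjusted p = 0.0281).

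Other transcripts moved with these changes in liver. The summed level of 10 hepatocyte markers was 121619 to 178651 at 5 months and 55035 to 116878 at 20 months, lowest in mouse 74, and 1 of 10 fell past the threshold. *Alb* made up much of this sum, at 73618 to 125324 and 26970 to 69595, and did not pass (-0.86 ± 0.61, adjusted p = 0.331). *Apoa1* of the same list overlapped between the ages, at 10565 to 12211 and 8872 to 13607. Macrophage markers summed to 228 to 415 and 248 to 717, with 4 of 10 higher, and mouse 16 at 248 and mouse 74 at 717 were the extremes of the older group. B-cell markers summed to 2.18 to 8.24 and 9.97 to 19.7, with 5 of 5 higher. Clock genes summed to 198 to 281 and 236 to 516, with 2 of 10 higher and none lower. Mouse 16 at 236 and mouse 74 at 516 were again the extremes of the older group. The clock gene *Dbp* did not exceed 2.28 at 5 months and was 2.595, 9.67, 12.5, 76.3 and 82.6 at 20 months. *Dbp* thus rose without overlap (2.81 ± 0.79, adjusted p = 0.0332). Of the same list, *Arntl* was lower in every older liver but did not pass (-0.98 ± 0.32, adjusted p = 0.0501). *Per1* did not pass either (-0.97 ± 0.50, adjusted p = 0.181). The clock sum thus adds genes with changes of opposite sign. Markers of periportal hepatocytes, where fatty acid oxidation is most active, summed to 13929 to 19968 and 5276 to 9386 with 6 of 7 lower, and markers of fasting to 9011 to 17022 and 2820.2 to 9890.2 with 3 of 8 lower. In whole tissue, fewer cells of a type and less RNA per cell cannot be told apart, and the part of these transcripts in the results above was not tested.

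The third comparison asked the same of adipose tissue. Of the 35 genes, 16 rose and 1 fell, against 9.75% of the 14005 genes tested that rose and 9.35% that fell (19.1% in all), and the median log2 change was 0.40, against 0.0072 for all genes tested. By role, the risers were 2 of 5 transport genes, 3 of 4 acyl-CoA dehydrogenases, 2 of 3 electron transfer genes, 5 of 7 other β-oxidation enzymes, 2 of 4 peroxisomal genes and 2 of 3 ketone body genes. None of the 6 genes listed as PPARα targets passed by limma (2 at an unadjusted p under 0.05), and 1 of the 3 regulators fell.

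*Cpt1b*, the muscle-type carnitine palmitoyltransferase, rose most, from 2.65, 4.32, 2.42 and 3.26 at 5 months to 4.01, 20.7, 10.02, 16.2 and 13.2 at 20 months. Mouse 36 lay within the young range and the other 4 lay above it (1.6 ± 0.38 (SE), adjusted p = 0.0264). Even so it stayed below *Cpt1a*, which was 90.5, 88.5, 118 and 100.5 and then 109, 154, 163, 182 and 119 and narrowly missed the threshold (0.53 ± 0.17, adjusted p = 0.0541). Per kilobase, the median excess of *Cpt1a* over *Cpt1b* was 21.8 times at 5 months and 7.52 times at 20 months. *Crot* went from 14.3, 11.05, 16.8 and 24.3 to 26.3, 32.4, 31.7, 28.3 and 27.9, with every older sample above every younger one (0.83 ± 0.19, adjusted p = 0.0246).

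The acyl-CoA dehydrogenases catalyse the opening step of each cycle, each for its own chain length. *Acadm*, for medium chains, was 118, 79.1, 133 and 179 at 5 months and 246, 367, 280.2, 293 and 316 at 20 months, without overlap (1.28 ± 0.22, adjusted p = 0.0120). *Acads*, for short chains, was 40.3, 26.4, 45.6 and 51.2 and 63.8, 78.4, 82.5, 73.9 and 85.4, likewise without overlap (0.93 ± 0.18, adjusted p = 0.0160). *Acadl* rose by 0.65 ± 0.13, adjusted p = 0.0171, and *Acadvl*, for very long chains, did not pass (0.28 ± 0.13, adjusted p = 0.129). Of the later steps, *Acaa2*, the mitochondrial thiolase, rose from 42.7, 35.1, 56.8 and 73.1 to 87.7, 182, 134, 135 and 129 (1.36 ± 0.24, adjusted p = 0.0128). *Hadh*, the dehydrogenase of medium and short chains, rose from 73.6, 47.4, 102 and 133 to 144, 179, 157, 157 and 172 (0.95 ± 0.25, adjusted p = 0.0349), and in both genes the ages did not overlap. *Decr1*, which prepares unsaturated chains, was 54.7, 33.3, 63.1 and 92.4 and 82.8, 136, 109, 97.4 and 117, and mouse X5F5239 at 5 months exceeded mouse 36 at 20 months (0.89 ± 0.26, adjusted p = 0.0429).

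*Oxct1* was 111, 67.8, 157 and 173 at 5 months and 222, 288, 180.3, 192 and 248 at 20 months, with every older sample above every younger one but by a narrow margin between mice X5F5239 and 38 (0.89 ± 0.27, adjusted p = 0.0457). The other risers were *Acat1*, *Acaa1a*, *Acaa1b*, *Hadha*, *Hadhb*, *Etfb* and *Etfdh*, with log2 changes of 0.40 (*Etfdh*) to 0.77 (*Acaa1b*) and adjusted p of 0.0188 to 0.0492. *Acaa1b* went from 41.7, 39.8, 57.9 and 47.7 to 84.4, 87.98, 61.7, 70.4 and 97.7 and *Acaa1a* from 43.5, 36.2, 56.3 and 67.6 to 69.8, 85.0, 104, 85.0 and 78.2, without overlap in either. *Slc25a20*, *Cpt2*, *Etfa*, *Eci1*, *Eci2* and *Pex11a* had changes of -0.09 to 0.37 and did not pass, and *Bdh1* stayed near 1 at both ages (0.766, 1.51, 0.597 and 1.19, then 1.33, 0.584, 0.863, 0.656 and 1.46).

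No regulator and none of the 6 members listed as PPARα targets rose past the threshold, though 3 of those 6 had positive changes. *Ppard* fell, from 36.8, 38.4, 34.7 and 24.7 to 23.1, 19.04, 26.5, 24.6 and 20.49 (-0.54 ± 0.15, adjusted p = 0.0385), with mouse X5F5239 at 5 months inside the older range. *Ppara* was 11.2, 10.97, 7.43 and 10.9 and 8.84, 6.50, 3.69, 5.06 and 9.29 (-0.58 ± 0.24, adjusted p = 0.106), and *Ppargc1a* 13.9, 15.997, 3.12 and 10.1 and 6.78, 2.37, 1.61, 3.35 and 2.45 (-1.38 ± 0.44, adjusted p = 0.0532). *Ehhadh* separated the young mice, at 274, 778, 49.0 and 39.6, with mice X5F4299 and X5F5001 far above the other 2, while the older mice held 60.5, 29.4, 24.9, 38.5 and 44.9 (-1.90 ± 0.79, adjusted p = 0.105). *Acot1* was 17.2, 28.3, 3.42 and 28.9 and 15.1, 2.53, 4.01, 5.93 and 2.45 (-1.48 ± 0.63, adjusted p = 0.110), and *Acot2* 18.7, 25.8, 17.3 and 21.6 and 20.96, 16.5, 13.4, 13.4 and 14.8 (-0.38 ± 0.16, adjusted p = 0.108). *Vnn1* and *Acsl1* changed by -0.75 and 0.35 and did not pass.

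The count of 17 calls in adipose tissue depended on single mice. It was 2 without mouse X5F4299, where 2.89% of all genes were called, against 19.1% in the full set. It was 5 without mouse X5F5001, 6 to 8 without mouse 37, 38, 39 or 40, and 21 without mouse 36. The share of all genes called without these other mice is not given here. Whether the members moved more than other genes there is thus not shown. With mice X5F4299 and X5F5001 both left out (added after seeing the data), limma called none of the 34 members that could be tested, of which 15 had an unadjusted p under 0.05, and 0.104% of all genes. In the full set edgeR called 15 members higher and 3 lower, and DESeq2 18 higher and 4 lower. These counts stand without the share of all genes called in each direction, so they do not set the members apart from other genes.

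**Figure D4:**
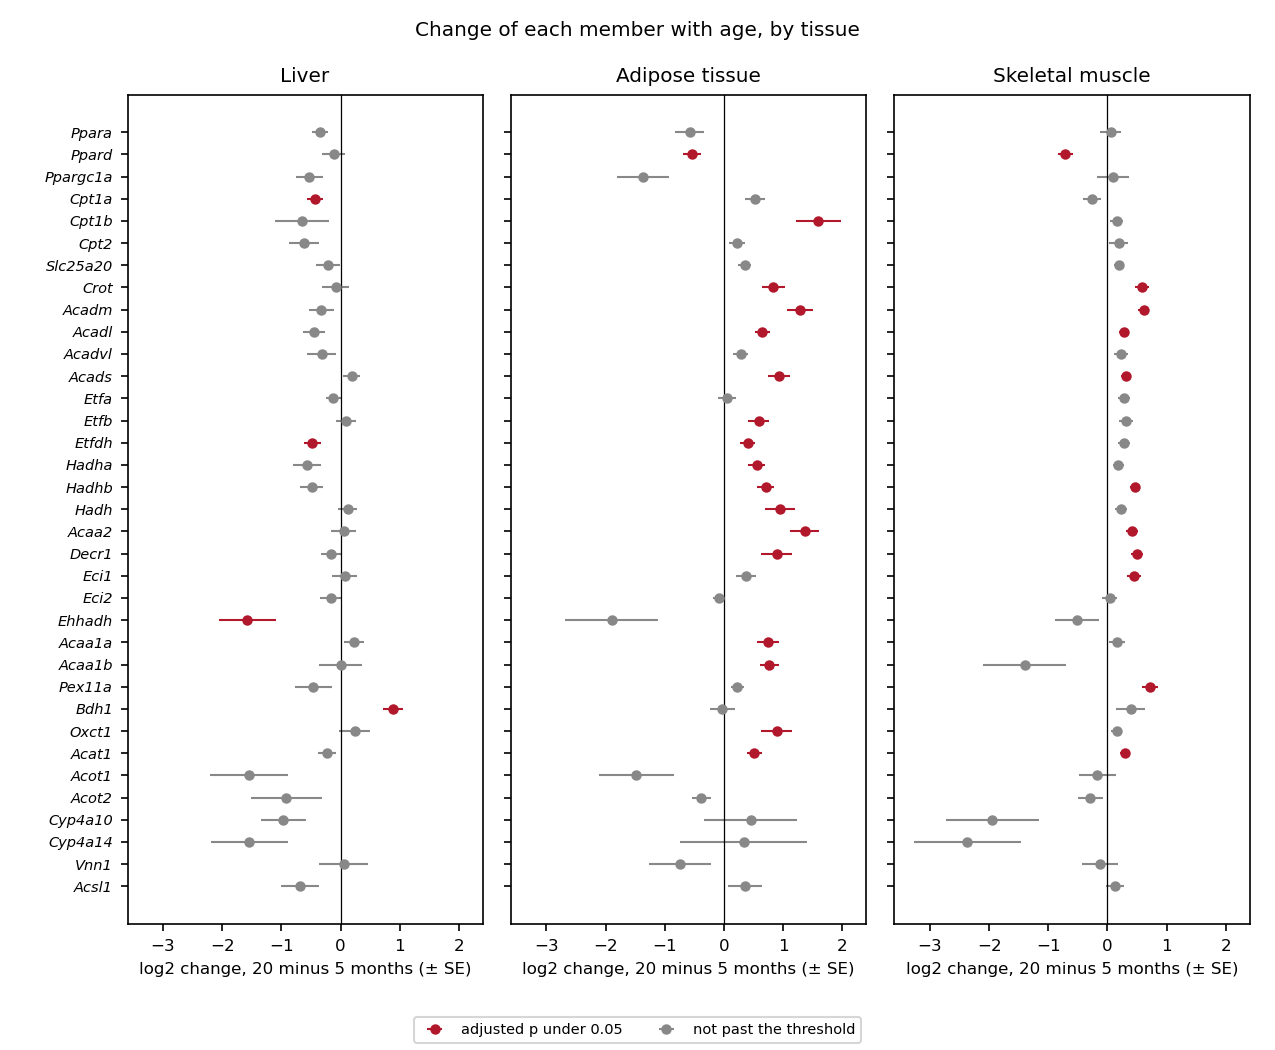
Log2 change from 5 to 20 months of each of the 35 genes in liver, adipose tissue and skeletal muscle, with bars of 1 SE, in red where the limma adjusted p was under 0.05. Red points lie mostly to the right of 0 in adipose tissue and skeletal muscle, 3 of the 4 in liver lie to the left, and the longest bars belong to the Cyp4a genes, Ehhadh and Acot1.

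Of 59 other pathway genes tested in adipose tissue, 6 rose and 9 fell, with a median log2 change of -0.01. The largest rises were *Acad12* (0.95 ± 0.14, adjusted p = 0.00948), *Esrra*, a nuclear receptor that works with PGC-1α (0.82 ± 0.21, adjusted p = 0.0314), and *Hsd17b4*, the peroxisomal multifunctional enzyme (0.76 ± 0.20, adjusted p = 0.0347). The largest falls were *Aacs*, which returns acetoacetate to lipid synthesis (-1.80 ± 0.17, adjusted p = 0.00184), *Acacb* (-1.68 ± 0.35, adjusted p = 0.0201) and *Slc22a5*, the plasma membrane carnitine transporter (-1.14 ± 0.17, adjusted p = 0.00948).

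Markers of other cells also moved in adipose tissue. Macrophage markers summed to 737 to 1529.6 at 5 months and 952 to 5439 at 20 months with 3 of 9 tested higher and 1 lower, B-cell markers to 5.39 to 21.7 and 18.1 to 189 with 5 of 5 higher, and adipocyte markers to 9978 to 17765 and 10411 to 14888 with 3 of 10 lower and 0 higher. Some adipocyte markers had positive changes that did not pass. *Plin1* was 242, 50.02, 281 and 374 and then 491, 785, 432, 527 and 736 (1.61 ± 0.51, adjusted p = 0.0542). *Lep* changed by 2.33 ± 0.87 (adjusted p = 0.0812) and *Adipoq* by 0.43 ± 0.24 (adjusted p = 0.209). *Plin1* and *Lep* were both lowest in mouse X5F5001 and highest in mouse 37. Markers of brown and beige fat summed to 16.2 to 39.9 and 34.4 to 45.3, with 2 of 6 tested higher. Fast-fibre muscle markers summed to 6.83 to 540.4 and 19.3 to 230.4, with none of 9 past the threshold, and *Cpt1b* in mice 36 to 40 stood beside sums of 19.3, 230.4, 69.9, 35.2 and 28.6. T-cell markers summed to 4.99 to 10.3 and 5.65 to 48.6 with 1 of 5 higher, and mesothelial markers to 70.0 to 144 and 36.9 to 80.2 with 3 of 6 lower. Markers of fasting summed to 2214 to 3217 and 1588 to 3452 with 1 of 6 tested lower, and those of feeding to 7441 to 26732 and 5012 to 16543 with 2 of 8 tested higher. Clock genes summed to 289.6 to 567 and 185 to 283 with 2 of 10 lower. These were *Per1* (-1.67 ± 0.41, adjusted p = 0.0288) and *Arntl* (-0.76 ± 0.21, adjusted p = 0.0379). The part of these markers in the rises was not tested.

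In skeletal muscle, the fourth comparison, 10 of the 35 genes rose and 1 fell, against 9.13% of the 12720 genes tested that rose and 10.1% that fell (19.3% in all). The median log2 change was 0.19, against 0.017 for all genes tested. The called genes comprised *Ppard* among the regulators, 3 of the 4 acyl-CoA dehydrogenases, 4 of the 7 other β-oxidation enzymes, 1 of the 5 transport genes, 1 of the 4 peroxisomal genes and 1 of the 3 ketone body genes. None of the electron transfer genes or of the genes listed as PPARα targets was called.

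*Pex11a* rose most, from 22.3, 15.1, 22.1 and 16.6 at 5 months to 27.8, 29.9, 37.8, 30.6 and 32.0 at 20 months, without overlap (0.72 ± 0.14 (SE), adjusted p = 0.00704). *Acadm* followed, from 377, 326, 413 and 341 to 526, 514, 593, 560.0 and 584 (0.61 ± 0.09, adjusted p = 0.00312). *Crot* rose from 31.1, 24.99, 36.6 and 34.4 to 53.9, 44.3, 51.4, 42.6 and 46.0 (0.58 ± 0.12, adjusted p = 0.0106). In each of these 3 genes all 5 older muscles exceeded all 4 younger ones. The same held for *Decr1*, at 162, 133, 133 and 122 and 178, 197, 205, 193 and 196 (0.50 ± 0.09, adjusted p = 0.00698), for *Hadhb*, at 639, 589.7, 612 and 559 and 813, 804, 836, 919 and 784 (0.47 ± 0.09, adjusted p = 0.00550), and for *Acaa2*, at 203, 179, 212 and 169.6 and 220.0, 248, 279, 280.2 and 249 (0.42 ± 0.10, adjusted p = 0.0189). *Eci1*, an isomerase for unsaturated chains, was 123, 101, 155 and 115 and 151, 152, 181, 183 and 167, where mouse X5S5238 at 5 months overlapped the older mice (0.44 ± 0.12, adjusted p = 0.0279). *Acadl*, *Acads* and *Acat1* rose by 0.27, 0.31 and 0.30, with adjusted p of 0.0447, 0.0262 and 0.0327.

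*Ppard* fell in skeletal muscle too, from 53.5, 64.6, 47.6 and 41.0 to 29.8, 33.0, 33.2, 30.9 and 27.2, every older muscle lying below every younger one (-0.71 ± 0.13 (SE), adjusted p = 0.00502). *Ppara* (46.5, 41.8, 34.2 and 28.5, then 33.6, 33.6, 47.5, 50.4 and 31.8) and *Ppargc1a* (34.3, 59.7, 34.7 and 73.4, then 56.7, 41.6, 47.2, 85.1 and 35.7) overlapped and had changes of 0.06 and 0.09. The muscle isoform *Cpt1b* was 559, 459, 567 and 477 and 526, 572, 644, 619 and 509 (0.16 ± 0.11, adjusted p = 0.304), and *Cpt1a* 28.3, 24.9, 27.3 and 31.9 and 18.1, 22.1, 21.3, 33.6 and 23.7 (-0.26 ± 0.15, adjusted p = 0.244). *Acot2* was 438, 189, 334 and 269.5 and 237, 301, 275, 237 and 174, *Acot1* 36.3, 12.9, 25.2 and 13.1 and 15.97, 22.4, 24.3, 18.7 and 10.05, and *Acaa1a* 45.9, 41.4, 63.2 and 62.4 and 56.7, 59.4, 62.3, 53.5 and 62.1, and none of these passed (adjusted p of 0.357, 0.712 and 0.384). *Etfa*, *Etfb*, *Etfdh*, *Hadha*, *Hadh*, *Acadvl*, *Slc25a20* and *Cpt2* all had positive changes of 0.18 to 0.32 that missed the threshold, as did *Bdh1* (0.39), *Oxct1* (0.15), *Acsl1* (0.12) and *Eci2* (0.04). *Ehhadh* (-0.51) and *Vnn1* (-0.13) had negative ones. The number of members called was 7 without mouse 58, 59, 60 or X5S5001 (9.17% to 15.5% of all genes called), and 5 when all 27 samples shared a fit.

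Of 54 other pathway genes tested in skeletal muscle, 3 rose and 4 fell, with a median log2 change of 0.06. The rises were *Fabp3*, the fatty acid binding protein of muscle and heart (1.03 ± 0.20, adjusted p = 0.00691), *Acsl6* (0.78 ± 0.17, adjusted p = 0.0114) and *Abcd2* (0.46 ± 0.11, adjusted p = 0.0171). The largest falls were *Ucp2* (-1.11 ± 0.23, adjusted p = 0.00948), *Angptl4*, an inhibitor of lipoprotein lipase induced by PPARs (-0.72 ± 0.20, adjusted p = 0.0277), and *Lpin1* (-0.64 ± 0.13, adjusted p = 0.00836). Fast-fibre markers summed to 117169.7 to 147338 and 109739.7 to 137386, with none of 9 past the threshold, slow-fibre markers to 345 to 2828, highest in mouse X5S4299, and 284 to 785, with none of 7 past it, and macrophage markers to 126 to 228 and 74.3 to 139, with 4 of 6 tested lower. Markers of fasting summed to 10009 to 11359 and 5705 to 9642 with 3 of 4 tested lower and no overlap between the ages. *Pdk4* made up most of these sums, at 9842 to 11049 and 5589 to 9517. *Pdk4* and *Angptl4* are in both this list and that of the other pathway genes. Clock genes summed to 817 to 824 and 768 to 857 with 3 of 10 higher and 3 lower. The lower ones included *Arntl* (-1.10 ± 0.23, adjusted p = 0.0110) and *Per1* (-1.52 ± 0.35, adjusted p = 0.0154). The part of these transcripts in the changes was not tested.

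Outside liver, *Cyp4a14* and *Cyp4a10* were highest in the samples with the most albumin transcript. In skeletal muscle *Cyp4a14* was 0.307, 5.48, 58.9 and 8.78 at 5 months and 0.196, 0.133, 5.93, 0.221 and 0 at 20 months, and *Alb* in the same samples was 0.999, 24.9, 222 and 27.5 and 0.522, 0.200, 43.1, 1.84 and 0. Mouse X5S5238 was highest for both at 5 months and mouse 58 at 20 months. *Cyp4a10* (0.154, 2.82, 30.1 and 4.81, then 0, 0, 3.98, 0 and 0) and *Acaa1b* (0.615, 1.21, 24.4 and 3.76, then 0.261, 0.864, 3.76, 0.367 and 0) had the same samples on top, and none of the 3 passed the age test (for *Cyp4a14*, -2.37 ± 0.90, adjusted p = 0.0824). The summed level of the 10 hepatocyte markers was 2.46 to 417 and 0.143 to 79.1 in skeletal muscle and 20.54 to 71.3 and 5.14 to 266 in adipose tissue, with none of the 6 and 8 that were tested past the threshold. In adipose tissue *Cyp4a14* was 1.28, 0.111, 8.79 and 6.93 at 5 months and 35.9, 0.350, 11.1, 0.188 and 2.21 at 20 months. *Cyp4a10* was 0.447, 0.259, 4.18 and 4.22 and 13.1, 1.36, 7.197, 0.0703 and 1.14, and neither passed (0.833 and 0.679, adjusted p). In the same samples *Alb* was 9.06, 1.995, 41.5 and 33.4 and 173, 3.04, 95.8, 2.30 and 10.8, with mice 36 and 38 highest. The ratio of *Cyp4a14* to *Alb* was 0.0452 to 0.269 in the 9 livers, 0.0816 to 0.212 in the 8 adipose samples with over 3 reads of both genes and 0.138 to 0.320 in the 5 muscle samples with over 3 reads of both. The ratio of *Cyp4a10* to *Alb* was 0.0667 to 0.126 in the livers, 0.0306 to 0.449 in 8 adipose samples and 0.0923 to 0.175 in 5 muscle samples. *Acaa1b* in adipose tissue stood 0.487 to 30.7 times as high as *Alb*, against 0.0239 to 0.132 times in liver. A count of 0 allows a value of up to that of 3 reads, which was 0.0703 to 0.242 among the 27 samples and covers counting error only.

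**Figure D5:**
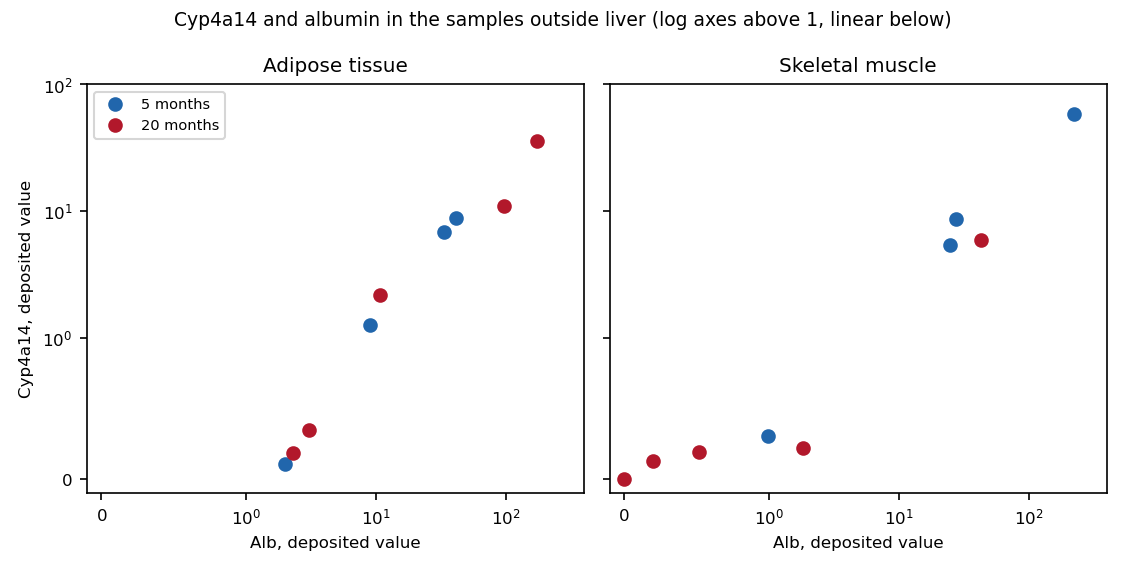
Deposited value of Cyp4a14 against that of Alb in the 9 adipose samples (left) and 9 muscle samples (right), blue at 5 months and red at 20 months, on axes that are logarithmic above 1 and linear below. In both tissues the samples with the most Alb, mouse 36 and mouse X5S5238, had the most Cyp4a14.

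The last comparison asked whether the age change differed between tissues, by a contrast of the changes in the fit over all 27 samples. The liver change was lower than the adipose change for 13 of the 35 genes and higher for none, against 6.97% of 15572 genes lower and 8.59% higher (15.6% in all). It was lower than the muscle change for 7 and higher for none, against 8.19% and 9.35% (17.5% in all). The adipose change exceeded the muscle change for 3 and fell short of it for none, against 8.34% and 6.34% (14.7% in all). The median difference over the 35 genes was -0.74, -0.41 and 0.23 in turn, against -0.0027, 0.026 and -0.0022 over all genes tested. The 3 contrasts share samples, so they are not independent.

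The widest gap between liver and adipose tissue was in *Cpt1b* (-2.25 ± 0.54, adjusted p = 0.00650), followed by *Acadm* (-1.60 ± 0.27, adjusted p = 0.000441) and *Acaa2* (-1.31 ± 0.29, adjusted p = 0.00362). The others were *Hadhb*, *Hadha*, *Acadl*, *Decr1*, *Cpt1a*, *Crot*, *Etfdh*, *Hadh*, *Acat1* and *Acads*, with differences of -1.20 to -0.74 and adjusted p of 0.000756 to 0.0337. The estimates of *Cpt1a* and *Etfdh* differed in sign by tissue, the fit giving -0.43 in liver and 0.53 in adipose tissue for *Cpt1a* and -0.47 and 0.40 for *Etfdh*. The contrast tests the difference and not the signs, and *Cpt1a* did not pass the age test within adipose tissue. Between liver and skeletal muscle the genes were *Pex11a* (-1.18 ± 0.32, adjusted p = 0.0136), *Hadhb* (-0.96 ± 0.21), *Acadm* (-0.93 ± 0.27), *Etfdh* (-0.75 ± 0.17), *Hadha* (-0.75 ± 0.26), *Acadl* (-0.72 ± 0.20) and *Acat1* (-0.53 ± 0.17). Adipose tissue exceeded skeletal muscle in the rise of *Acaa2* (0.95 ± 0.29, adjusted p = 0.0290), *Cpt1a* (0.79 ± 0.22) and *Acads* (0.62 ± 0.20).

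Treating samples with the same mouse number as a block gave 15 members for liver against adipose tissue, 8 for liver against skeletal muscle and 6 for adipose tissue against skeletal muscle, of which 5 higher and 1 lower. The genes it added to the last contrast were *Hadh*, *Acaa1b* and, in the lower direction, *Ppargc1a*, whose adjusted p without the block were 0.0654, 0.0510 and 0.0509. Without the block that contrast fell to 1 member when adipose mouse 37, X5F4299 or X5F5001 was left out, and reached 6 without adipose mouse 36, X5F5238 or X5F5239 or liver mouse 74 and 5 without liver mouse 16. Scaling by the library total only shifted the median of all genes by 0.23, 0.12 and -0.11 in the 3 contrasts and gave 1 member higher and 12 lower, 1 higher and 6 lower, and 4 higher and 1 lower. Quantile normalization gave 7 higher and 1 lower for adipose tissue against skeletal muscle, and edgeR 4 and 1. The share of all genes called under the block, these scalings and edgeR is not given here.

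Across the tissues, 22 of the 35 genes passed an age test at least once. All 35 were tested in all 3 tissues, and of the 11014 genes so tested 44.3% passed at least once. Of the 15449 genes tested in at least 1 tissue, 39.8% did. Of the 16 risers of adipose tissue, 8 (50%) also rose in skeletal muscle, which is 80% of its 10, namely *Acaa2*, *Acadl*, *Acadm*, *Acads*, *Acat1*, *Crot*, *Decr1* and *Hadhb*, and *Ppard* fell in both. Of all genes tested in both tissues, 15.4% of the 1068 that rose in adipose tissue also rose in skeletal muscle, which is 15.6% of the 1059 that rose there. The 5-month samples of both tissues carry the same 4 mouse numbers. No member that passed in liver, 1 riser and 3 fallers, passed in the same direction elsewhere, and *Etfdh* passed in liver downward and in adipose tissue upward. Of all genes tested in both tissues, 30.7% of liver risers and 16.8% of liver fallers passed in the same direction in adipose tissue. In skeletal muscle the shares were 9.98% and 12.5%, so none shared among so few members does not set them apart from other genes. The 13 genes that passed in no tissue were *Ppara*, *Ppargc1a*, *Cpt2*, *Slc25a20*, *Acadvl*, *Etfa*, *Eci2*, *Acot1*, *Acot2*, *Cyp4a10*, *Cyp4a14*, *Vnn1* and *Acsl1*.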

How the data were processed

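Poly-A RNA of 27 *Mlx*KO tissue samples had been sequenced from stranded libraries, and the authors counted reads per gene with CLC Genomics Workbench 23.0 on GRCm38.p6. The deposited table is headed CPM, but its values are a scaled signal: CPM that the authors divided by a further factor per sample, so that columns summed to 559419 to 1395315. The tests had been planned for plain CPM and were kept, since a log2 scale suits both. Whole reads were recovered from 100% of values within a tolerance of 0.1 of a read, giving 14384695 to 25673919 reads per sample. No pair of samples was identical, and no column was left unused.

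The 35 members and the lists of markers and of other pathway genes were chosen with earlier results of these data known. Genes that reached a value of 1 in 4 or more samples were tested by limma 3.58.1 with a variance trend (R 4.3.3) on log2(value + 1), with Benjamini-Hochberg adjustment over all genes tested and a threshold of 0.05. This scale understates the change of low genes. Age was tested within the 9 samples of a tissue, and tissues and age-change differences in a fit of 6 groups over all 27 samples. No other term was fitted. Every member is described. Per-sample values are given for members past the age threshold (in each tissue the 8 with the largest change at most), for the isoform pairs and for the 3 regulators, and further ones were added after their values were seen. Other pathway genes named are the 3 largest rises and falls past the threshold in each tissue; 1 further gene of that rule is not reported here, and *Plin2* was not analysed here. Alternatives were edgeR 4.0.16 and DESeq2 1.42.0 on recovered reads, other scalings, pseudocounts and filters, sample weights, and each sample left out. The scripts were tested on simulated data.

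The numbers that pair tissues at 5 months come from the sample names and were taken as the same mouse. The paper's supplement lists each of these numbers as a mouse with skeletal muscle, liver and adipose tissue. Deviations from the group means correlated at a mean of 0.136 (-0.0169 to 0.294) between tissues of a number and at -0.0450 between other samples. Promoters came from RefSeq (GRCm38.p6). No entry was found for *Acat1*, *Vnn1*, *Cyp4a14*, *Cyp4a10*, *Cpt1b*, *Decr1* and *Acaa2*.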

Additional observations from a re-analysis of the deposited data

Results flagged for a closer look

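Single samples stood apart from their group by Dixon's test in 12 of 148 groups of values examined (8.11%), where chance gives about 1 in 20. In liver at 20 months these were *Acot1* (1721) and *Acot2* (371.4) of mouse 16, both above the rest. In liver at 5 months they were *Cyp4a14* (25023) and *Plin5* (529) of mouse X5L5001, both the highest. In adipose tissue they were *Ppara* of mouse X5F5238 at 5 months (7.43, the lowest) and *Acot1* of mouse 36 at 20 months (15.1, the highest). In skeletal muscle, mouse X5S5238 at 5 months was highest for *Acaa1b* (24.4), *Cyp4a10* (30.1) and *Cyp4a14* (58.9), and mouse 58 at 20 months for *Acaa1b* (3.76), *Cyp4a10* (3.98) and *Cyp4a14* (5.93). These 2 muscle samples also held the most *Alb* of their groups, and the part of liver RNA in these values was not tested.

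Age changes that differed between tissues by the interaction contrast numbered 23. For liver minus adipose tissue, the log2 differences were -2.25 for *Cpt1b*, -1.60 for *Acadm*, -1.31 for *Acaa2*, -1.20 for *Hadhb*, -1.12 for *Hadha*, -1.10 for *Acadl*, -1.05 for *Decr1*, -0.96 for *Cpt1a*, -0.91 for *Crot*, -0.87 for *Etfdh*, -0.83 for *Hadh*, -0.74 for *Acat1* and -0.74 for *Acads*. For liver minus skeletal muscle they were -1.18 for *Pex11a*, -0.96 for *Hadhb*, -0.93 for *Acadm*, -0.75 for *Etfdh*, -0.75 for *Hadha*, -0.72 for *Acadl* and -0.53 for *Acat1*. For adipose tissue minus skeletal muscle they were 0.95 for *Acaa2*, 0.79 for *Cpt1a* and 0.62 for *Acads*.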

How the results depend on the processing

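No call of a named gene reversed, but 8 of the 80 log2 age changes followed for named genes, none of them called, took another sign under some alternative. In liver *Ppard* (-0.11) became 0.10 by library total, 0.047 without the 20 most abundant genes and 0.12 with sample weights, *Acaa1a* (0.23) became -0.068 with the transcript trend removed, and *Acaa1b* (-0.00042) became 0.24, 0.18 and 0.44 by library total, without the 20 most abundant genes and by quantiles, 0.039 with edgeR, 0.050 with DESeq2 and 0.015 without mice 16 and 74. In adipose tissue without mice X5F4299 and X5F5001, *Cyp4a10* (0.45) became -0.52 and *Cyp4a14* (0.33) -0.91, and in muscle *Ppargc1a* (0.09) became -0.037 with sample weights. As single mice were left out, *Ppard* in liver ran from -0.27 to 0.049, *Acaa1b* in liver ran from -0.22 to 0.23, *Cyp4a10* in adipose ran from -0.038 to 0.89, *Cyp4a14* in adipose ran from -0.41 to 0.83, *Ppara* in muscle ran from -0.067 to 0.16, *Ppargc1a* in muscle ran from -0.10 to 0.29 and *Acot1* in muscle ran from -0.37 to 0.10. In liver, where 4 members passed, the count was 1 with no filter on low values, 2 after quantile normalization, 14 with sample weights, 2 with edgeR, 1 once the trend with GC and length of transcripts was removed (added after seeing the data), 14 without mice 16 and 74 (likewise added) and 7 when all 27 samples shared a fit, and it ran from 1 to 12 as single mice were left out. In adipose tissue the 17 became 10 with no filter, 27 with sample weights and 0 without mice X5F4299 and X5F5001 (added after seeing the data, 15 at an unadjusted p under 0.05), and ran from 2 to 21 as single mice were left out. In skeletal muscle the 11 became 5 in the fit of all 27 samples and ran from 7 to 15. The 3 members whose age change differed between adipose tissue and skeletal muscle became 5 by library total only, 8 by quantile normalization, 5 with edgeR and 6 with the mouse number as a replicate block, and ran from 1 to 6. The replicate block moved no other count by over 1.5 times (15 and 8 members for the other 2 contrasts of age change). As single samples were left out, counts ran from 11 to 18 and 5 to 9 in those contrasts, and between tissues from 34 to 34 and 35 to 35 (liver and adipose tissue at 5 and 20 months), 32 to 33 and 33 to 34 (liver and skeletal muscle) and 29 to 30 and 30 to 32 (adipose tissue and skeletal muscle). Scaling by library total shifted the median of all genes by -1.07 and -0.85 between liver and adipose tissue at 5 and 20 months and by -0.18 between liver and skeletal muscle at 5 months. The recovered-read test by edgeR called 2578, 2692 and 2453 genes with age in liver, adipose tissue and skeletal muscle, and DESeq2 called 6, 22 and 12 members. The cause of these moves was not tested. Where a count stands without a share of all genes, it does not show whether the members moved more than other genes. With 4 or 5 mice a group and adjusted p values of 0.0437 to 0.0495 for the liver falls, calls near the threshold turned on single libraries. Values under 1 rested on few reads.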
